A study of Mus musculus with 46 samples.

Results

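The 12 libraries of established induced pluripotent stem cells (iPSC) were compared with the single library of mouse embryonic stem cells (mES), 13 of the 46 samples of the series. A gene was counted as higher or lower in iPSC when at least 11 of the 12 iPSC lay at least 2-fold to the same side of mES on log2(FPKM + 1), where FPKM is the number of fragments scaled by transcript length and by the mapped fragments of the library. Of 11776 genes that could meet this rule, 77 were higher in iPSC (0.654%) and 273 were lower (2.32%), 350 in all (2.97%). With 1 mES library there is no test of a single gene against mES, so these calls describe these libraries. An alternative call, by limma with the spread of the iPSC standing for that of the lone mES library, gave 126 genes higher (1.07%) and 518 lower (4.4%). It uses the same values and is no independent support.

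The iPSC were made from OG2 mouse embryonic fibroblasts (MEF), which carry an Oct4-GFP reporter, with retroviral Oct4 (gene Pou5f1) and either native Nanog (NanogWT, 6 libraries) or NanogBiD, in which an N-terminal piece of the BAF subunit SS18 that binds BRG1 is joined to Nanog (6 libraries, labelled NanogN70). Each combination had libraries labelled iPSC1 (3 NanogBiD and 4 NanogWT) and libraries labelled iPSC2 (3 and 2). The labels do not say what iPSC1 and iPSC2 stand for. Both are called lines here for short, without meaning a single clone. In the paper the MEF came from embryos of OG2 males crossed to females of another strain, so the iPSC carry that mixed background. The mES came from embryos of OG2 mice, and no such cross is named for them. The iPSC and mES were grown without feeders in N2B27 with CHIR99021, PD0325901 and LIF. In the file headers the mES stood at passage 20, iPSC1 at passage 5 or 6 and iPSC2 at passage 2. Passage, cell origin and genetic background can therefore not be told apart from the difference between iPSC and mES. The NanogWT iPSC1 libraries 1# and 1#-2 share a clone number, and nothing in the labels says whether the remaining libraries come from separate infections. The 2 MEF libraries are given beside the iPSC.

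Mouse pluripotent stem cells in this medium are held in the naive state, in which inhibition of ERK signalling, activation of Wnt signalling and LIF maintain a network around Oct4, Sox2 and Nanog. They make much of their energy by glycolysis, and low oxygen raises glycolytic enzymes further through the transcription factor HIF1. Mouse embryonic stem cells in long culture are known to gain whole chromosomes and, in female lines, to lose an X chromosome.

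Both cell types had the markers of their label. The 12 pluripotent stem cell markers summed to 3950 FPKM in mES, 2514 to 6051 FPKM in iPSC and 13.3 and 12.2 FPKM in MEF. Their median log2 difference was 0.09. None was called, which says little for so few genes, since 2.97% of all genes were called. Pou5f1 was at 296 FPKM in mES and at 261, 342 and 376 FPKM (lowest, median and highest of the 12 iPSC). Sox2 was at 180 FPKM in mES and 187, 234 and 315 FPKM in iPSC. Nanog was at 393 FPKM in mES and 258, 305 and 439 FPKM in iPSC, with 1 iPSC above mES. In the gene table the same mES library had Pou5f1 at 877 FPKM, so levels differ between the tables. Transcripts of the transgenes and of the native genes are not separated in these values. Ss18 was at 40.2 FPKM in mES and 35.2, 45.5 and 54.5 FPKM in iPSC.

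A few libraries stood apart. NanogBiD iPSC1 9# had the lowest correlation with mES across genes (r = 0.905, against a median of 0.940 over the 12 iPSC), and its fibroblast markers summed to 3202 FPKM, against 253 to 616 in the other 11 iPSC and 286 in mES. Its primitive endoderm markers summed to 610 FPKM, against at most 225 in the other iPSC. The part of such cells in its values was not tested. Without this library, and with at least 10 of the other 11 iPSC on one side, 81 genes were higher and 296 lower. The total per iPSC library was 396871 to 435908 FPKM, and the read depth behind it is unknown. The median log2 difference from mES over all genes that could be called was -0.16, a small shift towards lower values in iPSC. With each library centred on its own median, 114 genes were higher and 156 lower, and the share of calls that were lower went from 78.0% to 57.8%. Quantile normalization gave 113 and 170, a share of 60.1%.

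Each of the 13 libraries in turn was also put in the place of mES, as a description with no test. The remaining 12 libraries were 2-fold higher than mES for 77 genes, and higher than any single iPSC for 1 to 52 genes. They were lower than mES for 273 genes, and NanogBiD 9# gave more, with 413. For the other 11 iPSC the count was at most 87, for NanogWT iPSC1 3#. The number of genes 2-fold from mES was 1190 to 1997 per iPSC. It was 1590 ± 248 (SD, n = 6) for NanogBiD and 1476 ± 248 (n = 6) for NanogWT, a difference of 114 (exact permutation within line, two-sided p = 0.411). It was 1621 ± 261 (n = 7) for iPSC1 and 1409 ± 169 (n = 5) for iPSC2, a difference of 212 (exact permutation within combination, p = 0.163). That difference was 374 after quantile normalization (exact permutation p = 0.0233). Counting genes 4-fold from mES, it was 49.7 (exact permutation p = 0.04). Under the 16 other ways of processing the values or leaving out a library, the exact permutation p was 0.0633 to 0.34. No p was adjusted for the number of alternatives, so the 2 lowest do not establish a difference between the lines.

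**Figure D1:**
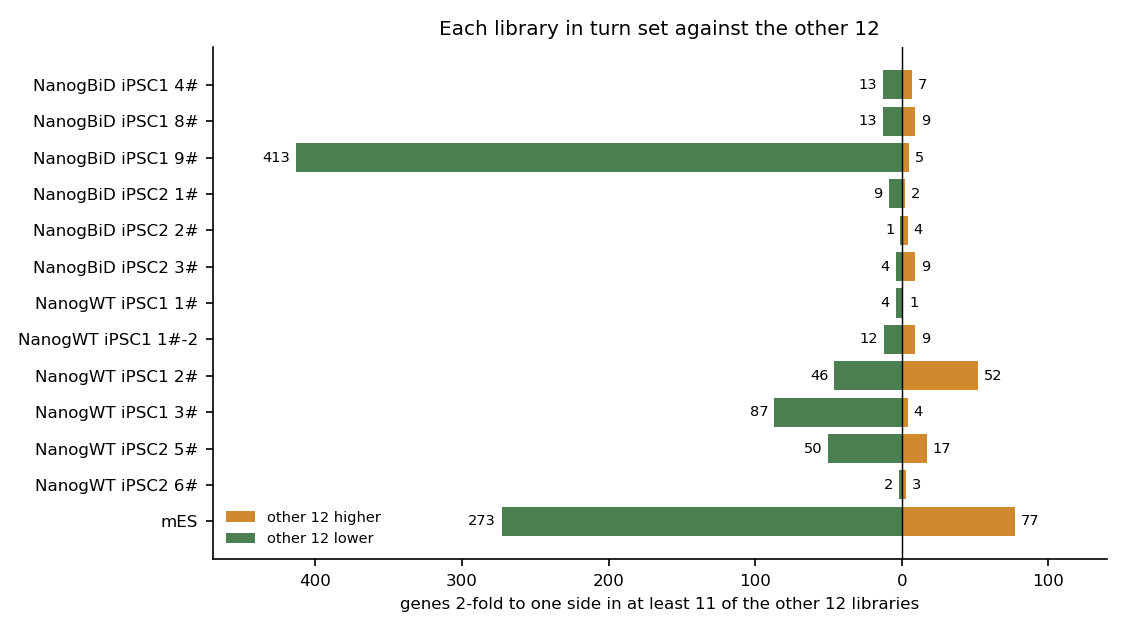
Number of genes (horizontal axis) for which at least 11 of the other 12 libraries were 2-fold higher (orange, to the right) or lower (green, to the left) than the library named on the vertical axis. The mES library gave 77 and 273, and among the iPSC NanogBiD iPSC1 9# gave 413 lower genes.

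The largest called group of lower genes among the lists was that of glycolysis and the response to low oxygen. Of 30 members that could be called, 10 were lower in iPSC and none higher (33.3% lower, against 2.32% of all genes). The median log2 difference of the list was -1.28, against -0.16 over all genes, and 28 of the 30 members had a median under 0. The summed level of the list was 3854 to 7734 FPKM in the 12 iPSC, all under the 8599 FPKM of mES, and the highest iPSC was NanogWT iPSC1 2#. The called members were a lactate transporter, enzymes of glycolysis and genes that low oxygen induces.

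Slc16a3, which exports lactate (chr11:120948484-120959000, mm10), was at 99.2 FPKM in mES and at 4.10, 6.90 and 33.4 FPKM in iPSC, 14.4-fold lower at the median. The highest iPSC was NanogWT 2#, and the groups did not overlap. Slc2a3, a glucose transporter, was at 1125 FPKM in mES and 306, 459 and 804 FPKM in iPSC, with 8 of 12 iPSC 2-fold lower, so it was not called. Among enzymes, Tpi1 (triose phosphate isomerase) was at 426 FPKM in mES and 92.6, 147 and 214 FPKM in iPSC. Aldoc (aldolase C) was at 24.0 FPKM in mES and 1.09, 4.47 and 13.7 FPKM in iPSC. Both were lower than mES in every iPSC, by 2-fold in 11 of 12. The most abundant enzymes were closer to mES and were not called. Ldha, lactate dehydrogenase A, was at 1044 FPKM in mES and 389, 510 and 822 FPKM in iPSC, 2-fold lower in 6 of 12. Pkm, pyruvate kinase, was at 1406 FPKM in mES and 549, 1227 and 1790 FPKM in iPSC, and overlapped mES. Eno1, enolase, was at 511 FPKM in mES and 314, 523 and 729 FPKM in iPSC.

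Further called members are genes that low oxygen induces. Bnip3, a mitophagy receptor (chr7:138890836-138909506), was at 76.6 FPKM in mES and 7.01, 15.1 and 33.8 FPKM in iPSC, 5.08-fold lower at the median. Ddit4, an inhibitor of mTORC1 signalling, was at 110 FPKM in mES and 11.2, 20.7 and 50.8 FPKM in iPSC. Ankrd37 was at 11.9 FPKM in mES and 0.775, 1.499 and 2.66 FPKM in iPSC. All 12 iPSC were 2-fold below mES for each of these. Ndrg1 was at 54.6 FPKM in mES and 6.65, 10.0 and 14.4 FPKM in iPSC. Egln3, an oxygen-sensing prolyl hydroxylase that marks HIF for degradation, was at 21.6 FPKM in mES and 1.09, 3.84 and 12.2 FPKM in iPSC. The remaining called members were P4ha2, a collagen prolyl hydroxylase, and Ero1l, an oxidase of the endoplasmic reticulum, with log2 differences of -2.08 and -1.46. In MEF, Bnip3 was at 12.7 and 15.6 FPKM and Slc16a3 at 10.3 and 32.5 FPKM, both within the range of the iPSC.

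Among the regulators of the response, Hif1a, Epas1 and Vhl were not called. Hif1a, the oxygen-regulated subunit of HIF1, was at 25.6 FPKM in mES and 29.1, 34.8 and 45.5 FPKM in iPSC, above mES in 12 of 12 and 2-fold in none. Epas1, which encodes HIF2A, was at 7.23 FPKM in mES and 10.5, 16.8 and 36.2 FPKM in iPSC, 2-fold higher in 8 of 12. Vhl, part of the ligase that degrades them, was at 22.7 FPKM in mES and 8.53, 9.96 and 15.5 FPKM in iPSC, 2-fold lower in 10 of 12. The level of the proteins was not measured. Outside the list, and named after their values were seen, Egln1, the main prolyl hydroxylase of HIF, was called lower like Egln3, at 53.4 FPKM in mES and 7.51, 11.7 and 13.8 FPKM in iPSC. Mgarp was at 23.9 FPKM in mES and 1.24, 3.50 and 8.45 FPKM in iPSC.

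The core of the element that HIF1 binds is ACGTG or GCGTG. Both were searched on both strands of the 250 bases before a single listed RefSeq start site per gene, in GRCm38.p6 (the build of mm10). The listed start need not be the outermost of the gene. A CACGTG counts as overlapping matches. Of 9 called members of the list with a sequence, 8 held a match, as did 14 of 19 members that were not called. A match was present in 107 of 200 genes called lower (53.5%), in 58.6% of the genes that could be called and in 38.6% of all 27025 promoters. The share in called genes was thus not above that of the genes that could be called. The sequences of 4 members that were lower in all 12 iPSC are given because their differences are described above, read 5′ to 3′ on the strand of the gene, with the matches in capitals. They are Slc16a3 (chr11:120948817-120949066, plus strand), Bnip3 (chr7:138909507-138909756, minus strand), Ankrd37 (chr8:45999851-46000100, minus strand) and Ddit4 (chr10:59951771-59952020, minus strand). The Slc16a3 stretch lies inside the gene span given above, so it precedes a start site within that span.
Slc16a3: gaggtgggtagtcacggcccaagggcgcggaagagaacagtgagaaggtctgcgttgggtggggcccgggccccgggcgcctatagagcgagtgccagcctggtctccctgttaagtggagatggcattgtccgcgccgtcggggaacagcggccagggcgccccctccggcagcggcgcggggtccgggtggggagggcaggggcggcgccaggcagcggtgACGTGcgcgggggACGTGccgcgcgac
Bnip3: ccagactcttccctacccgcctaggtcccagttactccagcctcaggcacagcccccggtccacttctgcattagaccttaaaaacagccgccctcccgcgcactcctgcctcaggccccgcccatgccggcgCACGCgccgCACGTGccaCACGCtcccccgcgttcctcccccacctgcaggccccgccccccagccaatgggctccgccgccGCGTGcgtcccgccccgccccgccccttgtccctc
Ankrd37: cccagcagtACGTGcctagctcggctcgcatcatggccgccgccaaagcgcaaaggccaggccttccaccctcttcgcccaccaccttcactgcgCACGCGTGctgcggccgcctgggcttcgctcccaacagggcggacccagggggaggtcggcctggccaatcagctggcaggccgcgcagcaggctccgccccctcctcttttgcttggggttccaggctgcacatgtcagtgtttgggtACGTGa
Ddit4: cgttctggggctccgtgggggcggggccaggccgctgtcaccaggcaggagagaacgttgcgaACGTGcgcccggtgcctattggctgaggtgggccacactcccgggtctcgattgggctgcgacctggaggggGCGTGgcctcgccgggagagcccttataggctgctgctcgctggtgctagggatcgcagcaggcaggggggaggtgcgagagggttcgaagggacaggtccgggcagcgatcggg
These hold 2, 5, 4 and 2 matches, in the same order. Whether HIF1 was bound there was not measured.

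The 15 genes furthest below mES were led by a gene that belongs to mitochondrial respiration. Ndufa4l2, a relative of a subunit of cytochrome c oxidase that low oxygen induces (chr10:127509274-127517154), was at 39.2 FPKM in mES. It was listed at 0 in NanogWT iPSC2 5#, had a median of 0.31 FPKM and reached 13.4 FPKM in NanogWT iPSC1 2#, a median log2 difference of -4.94. The next highest iPSC was at 2.41 FPKM. Its neighbour Nxph4 (chr10:127525473-127534559) was at 8.09 FPKM in mES and 0.26, 0.41 and 1.62 FPKM in iPSC. Cox4i2, a cytochrome c oxidase isoform that low oxygen induces, was at 5.96 FPKM in mES, listed at 0 in the lowest iPSC and at 0.88 FPKM in the highest.

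Bhlhe40, a transcriptional repressor of the circadian clock (chr6:108660629-108666925), was at 48.3 FPKM in mES and 1.51, 2.76 and 11.3 FPKM in iPSC, 17.5-fold lower at the median. The highest iPSC was NanogBiD 9#, and MEF stood at 38.1 and 27.6 FPKM. Igfbp4, which binds insulin-like growth factors (chr11:99040005-99052655), was at 21.6 FPKM in mES and at 0.43 and 0.92 FPKM (median and highest) in iPSC, listed at 0 in the lowest. It was at 126 and 34.0 FPKM in MEF, above mES. Ipp (chr4:116507512-116543410) was at 34.98 FPKM in mES and 2.07, 2.94 and 4.64 FPKM in iPSC, 11.9-fold lower, with little spread among the iPSC. Bhmt, a methyltransferase that makes methionine, was at 19.9 FPKM in mES and 0.81, 2.19 and 24.1 FPKM in iPSC, and only NanogWT 5# lay above mES. Erdr1 was at 126 FPKM in mES and 0.33, 17.6 and 74.1 FPKM in iPSC. This gene lies in the pseudoautosomal region shared by X and Y, and its values are uncertain. The remaining genes among the 15 were Bst2, H2-K1, Hebp1, Abi3, Pou2f3 and 2210011C24Rik, with log2 differences of -2.71 to -2.48.

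Of 15 genes of antigen presentation and the interferon response, 2 were lower (13.3%, against 2.32% of all genes) and none higher. H2-K1, a classical class I antigen-presenting molecule (chr17:33996012-34000619), was at 15.7 FPKM in mES and 0.95, 1.98 and 2.90 FPKM in iPSC, 7.92-fold lower. Bst2, which tethers budding virus to the cell, was at 134 FPKM in mES and 6.25, 19.7 and 35.8 FPKM in iPSC. Every iPSC lay below mES for both. B2m, the light chain of class I molecules, was at 22.6 FPKM in mES and 8.81, 22.8 and 103 FPKM in iPSC, highest in NanogBiD 9#. H2-K1 belongs to a polymorphic family, so differences between alleles can shift its mapped reads.

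**Figure D2:**
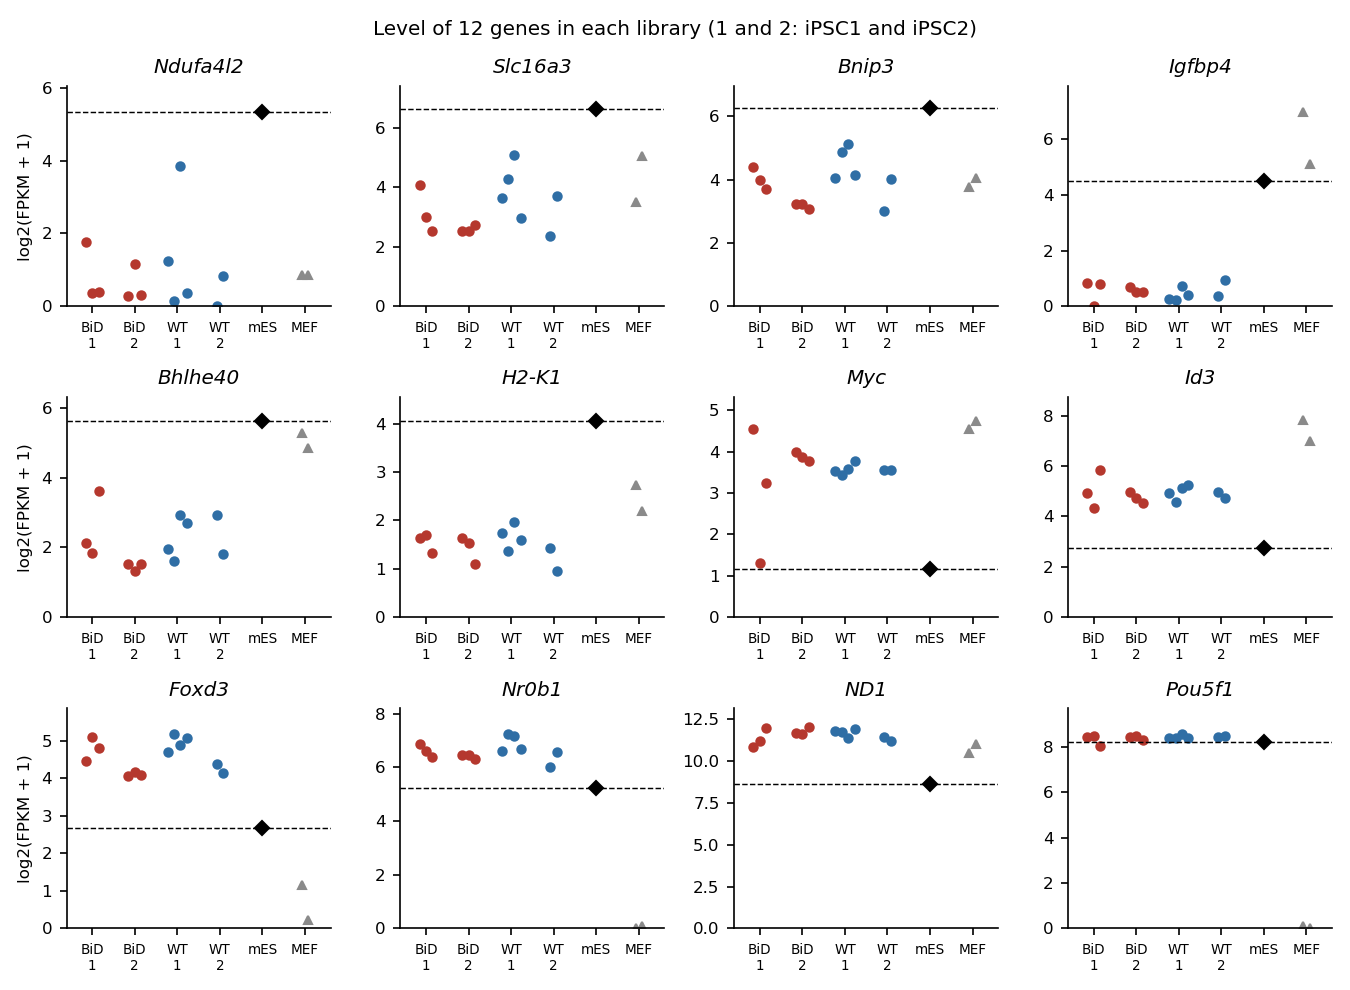
Level of 12 genes as log2(FPKM + 1) on the vertical axis in each library, with a panel per gene (NanogBiD red, NanogWT blue, each split into iPSC1 and iPSC2, mES as a black diamond with a dashed line, MEF as grey triangles). Ndufa4l2, Slc16a3, Bnip3, Igfbp4, Bhlhe40 and H2-K1 lie below the line in all 12 iPSC, Myc, Id3, Foxd3, Nr0b1 and ND1 above it, and Pou5f1 beside it.

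Among the lists, the transcription factors of pluripotency held the most higher genes, with 3 of 22 higher and none lower (13.6%, against 0.654% of all genes) and a median log2 difference of 0.43. Foxd3 (chr4:99656299-99658671), which is needed to keep embryonic stem cells undifferentiated, was at 5.37 FPKM in mES and 15.8, 23.05 and 35.5 FPKM in iPSC, 4.29-fold higher. Nr0b1, an orphan nuclear receptor on the X chromosome, was at 36.8 FPKM in mES and 63.5, 96.0 and 151 FPKM in iPSC, 2-fold higher in 11 of 12. With each chromosome centred on its own median, Nr0b1 was no longer called. All 12 iPSC were above mES for both genes, and MEF had at most 1.22 FPKM of either. Sall4, not called, was at 46.4 FPKM in mES and 89.6, 106 and 124 FPKM in iPSC, 2-fold higher in 9. The 22 pluripotency effectors, such as Dppa4 and Utf1, held no called gene, against 2.97% of all genes, and had a median of 0.01. Dppa3, a factor of the oocyte and early embryo, was at 21.7 FPKM in mES and 2.74, 6.90 and 13.8 FPKM in iPSC, 2-fold lower in 10.

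Targets of ERK and Wnt signalling, both of which the medium acts on, held 4 calls. Of 18 ERK targets, 2 were higher (11.1%, against 0.654% of all genes) and 1 lower (5.56%, against 2.32%). Of 13 Wnt targets, 1 was higher (7.69%) and none lower. Myc (chr15:61985341-61990361), which promotes growth, was at 1.26 FPKM in mES and at 1.49, 10.8 and 22.5 FPKM in iPSC, 8.59-fold higher at the median, and at 22.4 and 25.8 FPKM in MEF. Etv1, a transcription factor of the ETS family, was at 0.38 FPKM in mES and 1.13, 3.73 and 5.95 FPKM in iPSC. The lower member was Ier3, at 14.5 FPKM in mES and 1.02, 3.17 and 5.69 FPKM in iPSC. Notum, a secreted enzyme that inactivates Wnt proteins, was at 11.4 FPKM in mES and 22.5, 29.0 and 35.1 FPKM in iPSC. NanogBiD iPSC1 8# had the lowest Myc of the 12 iPSC and was the only iPSC under 2-fold for it. It was also the lowest of the 12 for the ERK targets Dusp6 (0.851 FPKM, median 6.53), Spry4 (0.466, median 4.18) and Etv4 (3.22, median 13.2) and for the Wnt targets Axin2 (7.87, median 16.4), Lef1 (0.909, median 3.18) and Sp5 (6.65, median 18.2). These genes were named after their values were seen. Id3, an inhibitor of differentiation induced by BMP signalling, was at 5.76 FPKM in mES and 19.2, 29.7 and 56.1 FPKM in iPSC, highest in NanogBiD 9#. Id1 was at 10.3 FPKM in mES and 3.00, 5.74 and 16.9 FPKM in iPSC. Among the 15 genes furthest above mES, Lrrn2, a membrane protein with leucine-rich repeats, was at 0.42 FPKM in mES and 2.89, 5.80 and 7.85 FPKM in iPSC. Serpina3m, of a family of protease inhibitors with similar copies, was at 0.98 FPKM in mES and 2.53, 8.21 and 9.84 FPKM in iPSC, and both were above mES in all 12 iPSC.

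Genes encoded by the mitochondrial genome made up the top of the higher genes. ND1, a subunit of respiratory complex I, was at 397 FPKM in mES and 1876, 3190 and 4193 FPKM in iPSC, a log2 difference of 3.00, and at 1409 and 2076 FPKM in MEF. CYTB, of complex III, was at 278 FPKM in mES and 905, 1617 and 2209 FPKM in iPSC. Of the 13 mitochondrially encoded protein genes, a set chosen after the values were seen, 12 were higher (92.3%, against 0.654% of all genes). Their median log2 difference was 2.18. These values depend on the table, since the same mES library was at 547 FPKM for ND1, 1651 FPKM for COX2 (597 in the transcript table), 1766 FPKM for COX3 and 948 FPKM for ATP8 (240) in the gene table. COX3 was not called, at 641 FPKM in mES and 1139, 1582 and 2517 FPKM in iPSC. Their share of all FPKM was 1.31% in mES, 3.95% to 7.74% in iPSC and 3.75% and 5.08% in MEF. Of 63 snoRNA genes, which lie inside host genes, 10 were higher (15.9%, against 0.654% of all genes). Their values are uncertain, since for Snord2 the mES library was at 0.97 FPKM in the transcript table and at 237 FPKM in the gene table.

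The remaining lists held 0 to 4 calls each. Cholesterol synthesis had 2 of 24 lower (8.33%, against 2.32% of all genes) and a median of -0.67. Dhcr7 was at 45.0 FPKM in mES and 5.99, 10.7 and 18.4 FPKM in iPSC, and Msmo1 at 90.1 FPKM in mES and 18.9, 27.3 and 42.4 FPKM in iPSC. Of 22 genes of amino acid supply and the Atf4 response, 3 were lower (Ddit3, Slc7a5 and Slc3a2, 13.6%). Slc7a3 was higher (4.55%, against 0.654% of all genes), and the median of the list was -0.60. Slc7a5 and Slc3a2, which form an amino acid transporter together, were at 212 and 152 FPKM in mES and had medians of 94.4 and 65.1 FPKM in iPSC. Slc7a3, an arginine transporter on the X chromosome, was at 22.7 FPKM in mES and 46.6, 60.9 and 86.6 FPKM in iPSC. Of 18 metallothionein and oxidative stress genes, 3 were lower (16.7%), among them Mt2 at 1417 FPKM in mES and 232, 461 and 700 FPKM in iPSC. Txnip, an inhibitor of thioredoxin, was at 66.1 FPKM in mES and 12.7, 25.02 and 44.9 FPKM in iPSC.

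Genes under imprinting and DNA methylation held few calls in number, at shares not below that of all genes (2.97% called) where a call was made. The noncoding RNA Meg3 of the Dlk1-Dio3 domain, whose silencing is known in some iPSC, was at 9.39 FPKM in mES and 1.82, 3.45 and 8.65 FPKM in iPSC, 2-fold lower in 9 of 12. Its neighbour Rian was at 11.6 FPKM in mES and 5.67, 8.67 and 13.6 FPKM in iPSC, 2-fold lower in none. Among 28 other imprinted genes only Sgce was lower (3.57%), and among 20 germline genes silenced by methylation only Tex14 (5%), against 2.32% of all genes. The 14 DNA methylation enzymes, 24 BAF, PBAF and ncBAF subunits, 19 genes of p53 and cell cycle inhibitors and 16 of LIF signalling held no call, with medians of 0.10, 0.09, 0.31 and 0.06. With 2.97% of all genes called, the absence of calls in lists of this size says little. Of 5 genes of the 2-cell-like state, Gm5662 was higher (20%, against 0.654% of all genes), at 0.10 FPKM in mES and 0.19, 3.05 and 6.44 FPKM in iPSC. Zscan4f, not called, was at 0.41 FPKM in mES and 0.08, 2.85 and 4.40 FPKM in iPSC, 2-fold higher in 10. Both have near-identical copies, so their values are uncertain. Of 20 fibroblast markers only 6 could be called, and none was higher or lower, against 2.97% called of all genes. Of 8 primitive endoderm markers Gata4 was lower (12.5%, against 2.32% of all genes), at 4.87 FPKM in mES and 0.22, 0.80 and 2.39 FPKM in iPSC. Over all 21 lists, 31 distinct members were called, 8 higher and 23 lower, of 326 that could be. Of all genes that could be called, 0.654% were higher and 2.32% lower.

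**Figure D3:**
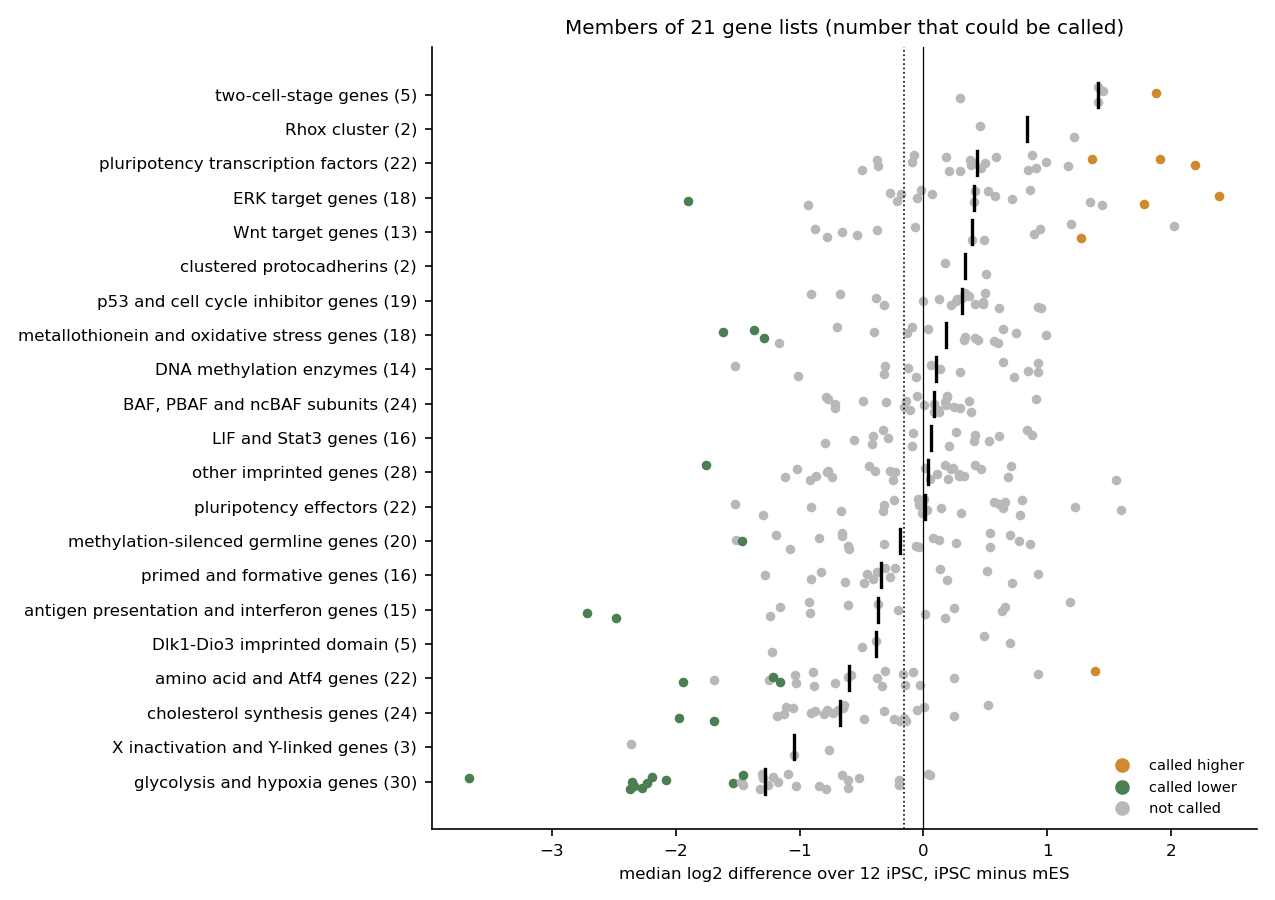
Median log2 difference (iPSC minus mES, horizontal axis) of each member of 21 gene lists, in rows, with the number of members that could be called in brackets (orange called higher, green called lower, grey not called). The bar marks the list's median and the dotted line the median of -0.16 over all genes, and the glycolysis and hypoxia list holds 10 green points.

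The lower genes were not spread evenly over the chromosomes. Chromosomes 6, 8 and 11 held 146 of the 273 lower genes (53.5%) on 18.9% of the genes that could be called. On these 3 chromosomes 6.54% of the genes were lower, and on all others 1.33% (126 of 9456). By chromosome, 57 genes were lower on 8 (8.55%), 40 on 6 (7.22%) and 49 on 11 (4.85%), and 3 of the 77 higher genes lay on these chromosomes. Igfbp4, Slc16a3, Aldoc, Bhlhe40, Ankrd37, Bst2 and Egln1 are among them.

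The shift extended to the expressed genes of these chromosomes as a whole. Relative to the median of all expressed genes, the median log2 difference from mES was -0.48 on chromosome 8, -0.44 on chromosome 6 and -0.26 on chromosome 11. The 16 other autosomes lay between 0.02 and 0.09. On chromosome 8 the 12 iPSC ranged from -0.50 to -0.43, and on chromosome 11 from -0.28 to -0.23. On chromosome 6 the range was -0.50 to -0.01, and NanogWT iPSC2 5# alone was near 0. The same library stood at 0.48 on chromosome 19, where the next iPSC was at 0.10. All 12 iPSC were thus below 0 on chromosomes 8 and 11. Cut into 4 parts of equal gene number along its length, chromosome 8 gave -0.43, -0.50, -0.49 and -0.50, chromosome 6 gave -0.37, -0.45, -0.47 and -0.47, and chromosome 11 gave -0.22, -0.25, -0.26 and -0.32. The 64 such parts of the other autosomes lay between -0.07 and 0.22.

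The MEF libraries, set against the same mES library, gave -0.52 and -0.47 on chromosome 8, -0.39 and -0.37 on chromosome 6 and -0.29 and -0.26 on chromosome 11, and -0.06 to 0.29 on the other autosomes. In the gene table, where the mES library stands beside the 31 time-course libraries, these gave -0.61 to -0.49, -0.34 to -0.17 and -0.47 to -0.29, with -0.30 to 0.49 on the other autosomes. All of these values share the 1 mES library. Chromosome number was not measured, and its part in the difference was not tested. With each chromosome centred on its own median, 89 genes were higher and 145 lower, of which 73 and 139 were among the calls above. Of the 10 glycolysis and hypoxia genes, 8 were then still lower (Aldoc, Bnip3, Egln3, Ankrd37, Slc16a3, Ndrg1, Ero1l and Ddit4). Called members of other lists that were lost in this way were Nr0b1, Sgce, Tex14, Msmo1, Slc7a5, Slc7a3, Mt2 and Mt3, and Sall4 (higher) and Stag3 (lower) were gained. On the other chromosomes 5 of 21 members of that list were lower (23.8%), with a median of -1.17.

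**Figure D4:**
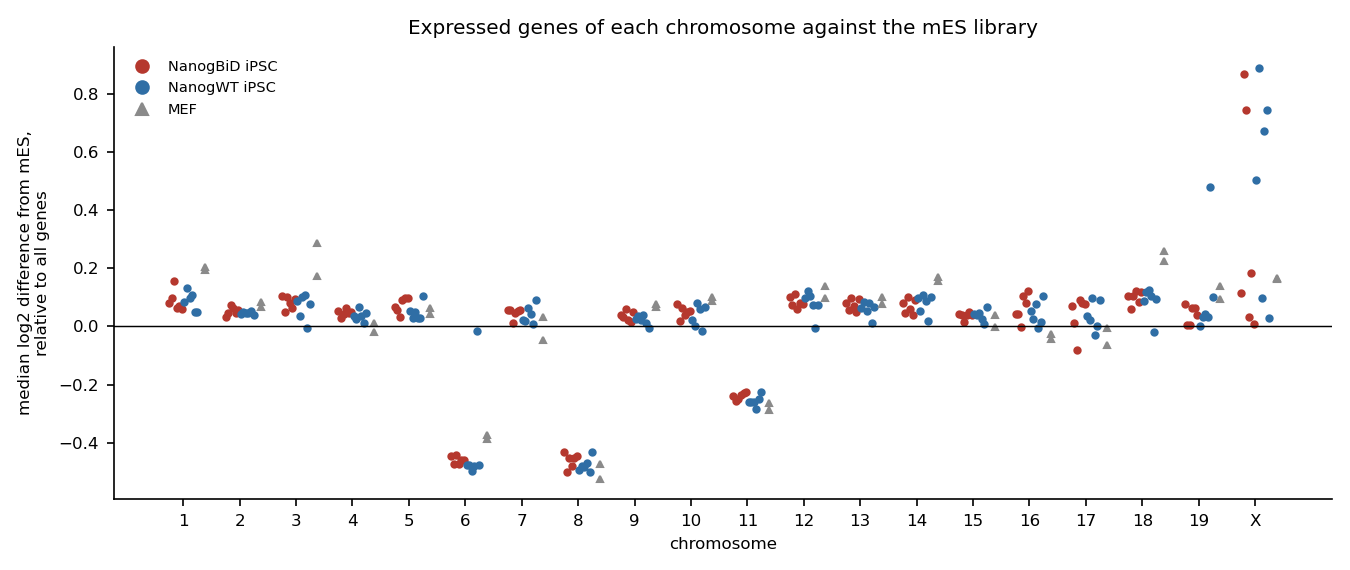
Median log2 difference from mES over the expressed genes of each chromosome (horizontal axis), relative to the median over all expressed genes (vertical axis), with a point per library (NanogBiD red, NanogWT blue, MEF grey triangles). Chromosome 8 lies between -0.50 and -0.43 and chromosome 11 between -0.28 and -0.23 in the 12 iPSC, chromosome 6 is near 0 in 1 of them, and the X chromosome splits.

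The X and Y chromosomes divided the iPSC among themselves. The median log2 difference on the X chromosome, on the same scale, was 0.01 to 0.18 in 6 iPSC and 0.50 to 0.89 in the other 6. The Y-linked gene Ddx3y was at 12.2 FPKM in mES, at 6.13 to 25.6 FPKM in the first 6 and at 0 to 4.71 FPKM in the others. Eif2s3y, also on Y, was at 23.9 FPKM in mES and at 0 to 34.2 FPKM in iPSC. Libraries of both lines and both combinations were found on each side, 5 of the 6 with a higher X being iPSC1. Xist, which silences an X chromosome, was at most 0.907 FPKM in any iPSC, and at 17.5 and 10.9 FPKM in MEF. Of the list of X inactivation and Y-linked genes only 3 could be called, and none was, against 2.97% of all genes. Uba1y, a Y-linked gene outside the list that was named after its values were seen, was 2-fold lower in all 12 iPSC, at 4.66 FPKM in mES and a median of 0.23 FPKM in iPSC.

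**Figure D5:**
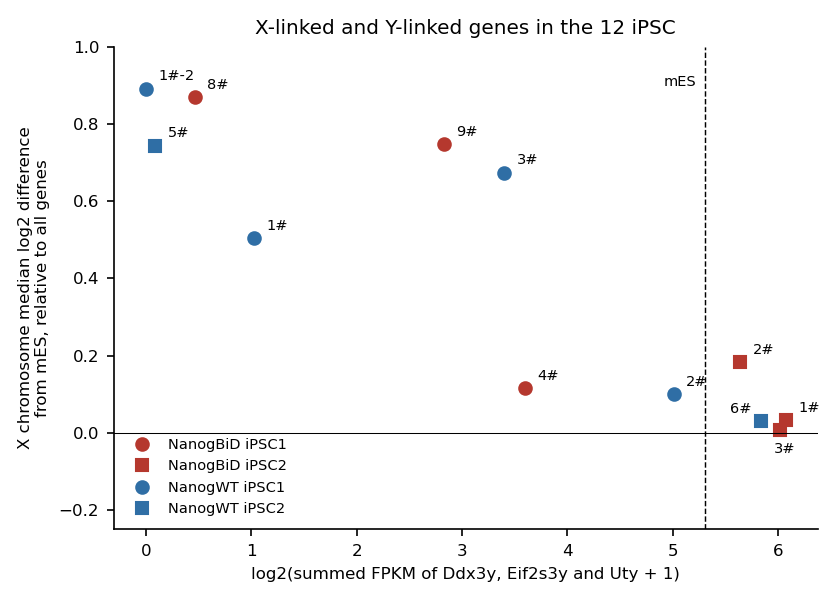
Median log2 difference from mES over expressed X-linked genes, relative to all expressed genes (vertical axis), against log2 of the summed FPKM of Ddx3y, Eif2s3y and Uty plus 1 (horizontal axis), with a point per iPSC (circles iPSC1, squares iPSC2, NanogBiD red, NanogWT blue) and the mES level dashed. The 6 iPSC with an X value of 0.50 to 0.89 have less Y-linked RNA than the other 6.

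The iPSC were then compared with each other by limma on log2(FPKM + 1), a comparison that the rule did not make. It uses the same iPSC values, however, and the rule favours genes on which the iPSC agree. Shares among the 350 called genes are shaped by that selection and are given as description. Between NanogBiD and NanogWT, with the line as covariate, no gene passed a Benjamini-Hochberg adjusted p under 0.05 and 2-fold (0 of 11776, smallest adjusted p = 0.999), and 196 genes (1.66%) had an unadjusted p under 0.05. Of the 350 called genes, 8 did (2.29%). Between iPSC1 and iPSC2, which also differ in passage, 102 genes passed (0.866%), 56 higher and 46 lower in iPSC1, and 6 of the 350 called genes were among them (1.71%). NanogWT iPSC1 1# and 1#-2, which share a clone number, entered as separate libraries. Without NanogWT 1# the counts were 45 higher and 45 lower in iPSC1, and without 1#-2 they were 41 and 36. Leaving out 1 iPSC gave 57 (without NanogBiD iPSC2 1#) to 190 (without NanogWT iPSC2 5#). At an unadjusted p under 0.05, 77 of the 350 (22%) and 24% of all genes differed between the lines.

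In limma's comparison of the lines, 4 of these 6 were higher in iPSC1, and thus nearer to mES. Ddit4 was at 31.5 ± 12.8 FPKM (SD, n = 7) in iPSC1 and 14.0 ± 4.6 FPKM (n = 5) in iPSC2, a log2 difference of 1.04 (limma adjusted p = 0.0478). Bst2 was at 23.6 ± 7.9 and 9.90 ± 5.0 FPKM, a log2 difference of 1.14 (limma adjusted p = 0.0386). P4ha2 and Acsl6, an enzyme that activates long-chain fatty acids, differed by 1.13 and 1.05 (limma adjusted p = 0.0214 and 0.000913). The other two were lower in iPSC1. Anxa4, a calcium-dependent membrane protein, was at 5.28 ± 1.3 FPKM in iPSC1 and 13.1 ± 1.0 FPKM in iPSC2, against 31.1 FPKM in mES (log2 difference -1.20, limma adjusted p = 0.000603). Cntnap2, a neuronal adhesion protein, was at 0.631 ± 0.16 and 2.42 ± 0.31 FPKM, against 7.73 FPKM in mES (-1.05, limma adjusted p = 0.000282).

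Set beside MEF, 44 of the 77 higher and 151 of the 273 lower genes had a mean of at least 1 FPKM in MEF, while 13 and 43 were listed at 0 in both MEF libraries. No share over all genes that could be called stands beside these counts, so they do not set the called genes apart. The median level of the higher genes was 3.37 FPKM in mES and 11.4 FPKM in iPSC, and that of the lower genes 8.43 and 1.85 FPKM. In 106 of the 273 lower genes the iPSC median was under 1 FPKM.

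The genes that 11 of 12 iPSC shared show which library was the exception. It was NanogWT iPSC1 2# for 55 lower genes, NanogWT iPSC2 5# for 35, NanogBiD iPSC1 9# for 18 and NanogBiD iPSC1 8# for 14. Of the 35 of NanogWT 5#, 14 lie on chromosome 6. For the higher genes it was NanogWT 5# for 16 of 40 and NanogWT 2# for 13. Without NanogBiD 9#, NanogWT 2# and NanogWT 5# together, and with a single exception still allowed, 118 genes were higher and 424 lower. This limit is looser and keeps all 350 genes by construction, so it is no support for them. The genes just inside the limit, as the log2 difference that 11 iPSC reached, were Gm5039 (1.006) and Maff (-1.005), and those just outside were Zfhx2 (0.993) and Rasd1 (-0.996).

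In the gene table the same mES library can be set beside D12 of reprogramming, in 2 replicates per combination. Slc16a3 was at 84.8 FPKM in mES, at 70.6 and 53.6 FPKM with NanogBiD and at 8.35 and 2.18 FPKM with NanogWT. Ndufa4l2 was at 46.3 FPKM in mES, at 14.6 and 8.38 FPKM with NanogBiD and at 0.40 and 0.057 FPKM with NanogWT. Myc was at 1.75 FPKM in mES, at 1.40 and 2.29 FPKM with NanogBiD and at 10.4 and 13.9 FPKM with NanogWT. Other called genes lay differently. Igfbp4 was at 26.2 FPKM in mES, at 61.4 and 81.3 FPKM with NanogBiD and at 60.1 and 48.7 FPKM with NanogWT. P4ha2 was at 13.6 FPKM in mES, at 4.38 and 4.14 FPKM with NanogBiD and at 9.39 and 6.16 FPKM with NanogWT, and Bhlhe40 was at 60.1 FPKM in mES and at 25.3 to 31.7 FPKM in the 4 libraries of D12. The tables were made separately and no test was made across them.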

How the data were processed

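Reads had been trimmed by Trim Galore (version 0.6.4), aligned to mm10 by HISAT2 (2.2.1) and quantified by StringTie (2.2.1). The authors deposited FPKM per transcript for 12 iPSC, 1 mES and 2 MEF libraries, and per gene for the time course, MEF and mES. The annotation release and the use of strand are not given in the sources used here, so overlapping genes are uncertain. The tables hold no counts and no read depth, so no count model, interval or detection limit was applied.

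FPKM of 106520 transcripts were summed by symbol into 35976 genes and analysed as log2(FPKM + 1), which understates the change of low genes. A gene could be called when it reached 1 FPKM in mES or in at least 11 iPSC. The iPSC were compared with each other by limma (3.58.1 in R 4.3.3, lmFit and eBayes with an intensity trend, line and combination in the same model, two-sided, Benjamini-Hochberg adjustment), tested on simulated data first, and by exact permutation of single values (Python 3.11.15, numpy 2.4.6, pandas 2.3.3, matplotlib 3.10.9). P-values measure the spread between these libraries, which may be partly technical, and NanogWT 1# and 1#-2 count as separate libraries in them. Chromosome medians used the 11539 genes that averaged 1 FPKM or more across the 13 libraries. Of the genes that could be called, 99.2% matched a RefSeq GRCm38.p6 gene.

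Genes were named when they were among the 15 called genes furthest from mES in each direction, called members of a list, up to 4 uncalled members of highest level per list, the reprogramming genes, or the 3 genes nearest the limit on either side. A gene named otherwise is said to be so where it stands, or is a further list member given for comparison. A called gene that meets this rule is not reported here. The called genes and the lists were chosen with earlier results of these data known. The same mES library correlated at r = 0.958 across genes between both tables, and 248 of 331 called genes with at least 1 FPKM agreed within 1.5-fold.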

Additional observations from a re-analysis of the deposited data

Results flagged for a closer look

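In groups of 6 iPSC (NanogBiD or NanogWT), 84 groups of values were examined for a library far from the other 5, and 16 held one. The cut-off would mark about 1 in 20 groups of normally distributed values. Many groups here were FPKM of genes called by the rule, which itself admits 1 deviating library. That rate therefore does not hold here, and the 16 are given as description. Each value is given with the nearest other library. NanogWT iPSC2 5# stood at -0.014 on chromosome 6 (next -0.476), at 0.479 on chromosome 19 (next 0.1002) and at 24.1 FPKM for Bhmt (next 3.23). NanogBiD iPSC1 9# had summed fibroblast markers of 3202 FPKM (next 616), summed primitive endoderm markers of 610 FPKM (next 225), Id3 at 56.1 FPKM (next 30.5) and Bhlhe40 at 11.3 FPKM (next 3.37).

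NanogWT iPSC1 2# had Ndufa4l2 at 13.4 FPKM (next 1.36) and its neighbour Nxph4 at 1.62 FPKM (next 0.789). NanogBiD iPSC1 4# had Slc16a3 at 15.8 FPKM (next 7.04) and Nxph4 at 0.530 FPKM (next 0.337). NanogBiD iPSC1 8# had Nanog at 439 FPKM (next 304). NanogWT iPSC1 3# had Myc at 12.7 FPKM (next 10.9) and Cox4i2 at 0.878 FPKM (next 0.198). NanogBiD iPSC2 1# had Snord2 at 33.4 FPKM (next 14.9) and Cox4i2 at 0.478 FPKM (next 0.106).

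Lines iPSC1 and iPSC2 differed by limma for 6 genes called against mES. The log2 difference, iPSC1 minus iPSC2, was 1.05 for Acsl6, 1.14 for Bst2, 1.04 for Ddit4, 1.13 for P4ha2, -1.20 for Anxa4 and -1.05 for Cntnap2. Line and passage cannot be told apart, and most iPSC with a higher X and less Y-linked RNA were iPSC1.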

How the results depend on the processing

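No call changed direction under any alternative. Stricter limits, fewer libraries or a smaller pseudocount could not have reversed a call, so for these the result was fixed in advance. The counts of genes higher and lower (77 and 273) were 140 and 586 with a pseudocount of 0.1, 142 and 484 as TPM, 113 and 170 after quantile normalization, 37 and 125 when all 12 iPSC had to agree, 4 and 14 at 4-fold, and 126 and 518 by limma with the spread of the iPSC standing for the lone mES library. They were 143 and 527 in NanogBiD alone, 122 and 426 in NanogWT alone, 163 and 499 in iPSC1 alone and 194 and 734 in iPSC2 alone, where fewer libraries had to agree. Leaving out 1 iPSC, with at least 10 of the other 11 on one side, gave 77 to 93 higher and 279 to 325 lower. All settings that leave libraries out keep every main call by construction, so their counts cannot fall. Called list members (31) were 15 with all 12 iPSC, 4 at 4-fold, 47 in NanogBiD, 50 in iPSC1 and 63 in iPSC2, and 31 to 37 without 1 iPSC. Glycolysis and hypoxia genes lower (10) were 5 with all 12 iPSC, 1 at 4-fold, 19 in iPSC2 and 10 to 12 without 1 iPSC.

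Chosen after seeing the data, centring each library on its median gave 156 lower genes, centring each chromosome 145, and leaving out chromosomes 6, 8 and 11 gave 127, with 18 list members and 5 glycolysis and hypoxia genes. Without NanogBiD 9#, NanogWT 2# and NanogWT 5#, with a single exception still allowed, the counts were 118 and 424. The difference between lines in genes 2-fold from mES (212) was 374 after quantile normalization (exact permutation p = 0.0233). At 4-fold it was 49.7 (exact permutation p = 0.04), and without 1 iPSC it was 149 to 271. Under the 16 alternatives other than quantile normalization and 4-fold, the exact permutation p was 0.0633 to 0.34, with no adjustment for their number. The difference between combinations (114) was 32.5 to 194 without 1 iPSC. The cause of these changes was not tested.

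Genes called between the lines by limma (102) were 591 with no fold limit, 200 with a pseudocount of 0.1 and 169 as TPM. Leaving out 1 iPSC gave 57 to 190, namely 178, 65, 57, 65 and 65 without NanogBiD 4#, 9#, 1#, 2# and 3#, and 185, 190 and 62 without NanogWT 2#, 5# and 6#. The count between combinations was 0 under each of its alternatives. With a pseudocount of 0.1, chromosome 8 stood at -0.51 and chromosome 11 at -0.29. Without 1 iPSC, chromosome 8 stood at -0.482 to -0.469, chromosome 6 at -0.471 to -0.437, chromosome 11 at -0.269 to -0.254 and the X chromosome at 0.281 to 0.487. The share of called genes with at least 1 FPKM in MEF (55.7%) was 54.9% to 56.7%, with no share over all genes beside it. No paired analysis was possible because mES is 1 library and the iPSC numbers are clone names that the labels do not pair across combinations. Read depth is unknown, so low values carry an error that cannot be given.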
